A study of Mus musculus with 3 samples.

Results

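The ATP-binding cassette (ABC) transporter genes were examined for binding of ESRRA, the estrogen-related receptor alpha, in the villus epithelium of the mouse duodenum. The members were the protein-coding genes of the mm9 annotation (GENCODE M1) whose symbol is Abc, a letter from a to g, a number and at most 1 further letter. This rule gave 50 of the 22367 protein-coding genes, in 7 subfamilies on 18 chromosomes, and used no measured value. The study made ESRRA ChIP-seq libraries from adult villus cells of wild-type (WT) mice, a genotype shared by every library. The mice were of the C57BL/6 strain and were fed regular chow. There were 2 libraries made with an antibody to ESRRA and 1 library of input chromatin. No treatment and no mutant entered these libraries, and how many mice went into each library is not given in the sources used here.

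The values were the positions of 1639 peaks, each 601 bp wide, which the authors called after merging both ChIP libraries. Replicate error could therefore not be given, the read depth of each library and the height of each peak were not analysed here, and no test between groups of samples was possible. Shares are given with 95% Wilson intervals, which cover counting error only, and neighbouring genes that share a peak are not independent. The list held no expression values, so that the villus identity of the cells was not checked against marker genes. Whether a transporter changed in expression when Esrra is lost was not analysed here.

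ABC proteins use the energy of ATP to move lipids, sterols, bile salts, drugs, peptides and metal-containing compounds across membranes. In the enterocyte they stand at the apical and the basolateral membrane, and others sit in the mitochondrial inner membrane and in peroxisomes. ESRRA is an orphan nuclear receptor known for its control of genes of mitochondrial energy metabolism. It binds an extended AGGTCA sequence, the hormone receptor core, of which the complete form used here is TCAAGGTCA and the 7-base form AAGGTCA.

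ESRRA peaks were near few of the transporters. A gene was counted as having a peak where the midpoint of a peak lay within 30 kb of a start site of any of its transcripts. This held for 6 of the 50 genes, Abca14, Abcb1a, Abcb8, Abcb11, Abcc2 and Abcc6, or 12.0% (95% Wilson interval 5.62 to 23.8%). Among all protein-coding genes it held for 1956 of 22367, or 8.75%, which lies inside that interval. These 6 genes had 10 peaks in all, of which 5 belonged to Abcc2 and the other genes had 1 each. No peak was within 30 kb of 2 members. Without peaks in repeated sequence, defined further on, 4 genes were left (8.00%, against 8.19% of all genes). With the starts of coding transcripts only there were 5 (10.0%, against 8.32%), and with both restrictions 4 (8.00%, against 7.82%).

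The sequences at these peaks are shown first, because they separate the loci. The Abcb8 peak and the Abcb1a peak each held the complete sequence TCAAGGTCA, given here in capitals within 29 bases of mm9 sequence, read 5′ to 3′ on the strand that carries it.
Abcb8 peak, chr5:23900014-23900022, plus strand: agaaagggcTCAAGGTCAgaagcgccagg
Abcb1a peak, chr5:8753492-8753500, minus strand: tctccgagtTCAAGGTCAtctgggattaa

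The peaks at Abcc2 and Abcc6 are shown by the 101 bases around their midpoints, on the plus strand of mm9, to let their centres be compared with the sites above. Capitals mark AGGTCA. None of these bases lay in an annotated exon, and in the 5 Abcc2 centres there were no capitals.
Abcc2 peak 1, chr19:43862107-43862207: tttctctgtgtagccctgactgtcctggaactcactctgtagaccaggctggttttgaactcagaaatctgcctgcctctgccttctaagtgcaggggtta
Abcc2 peak 2, chr19:43864443-43864543: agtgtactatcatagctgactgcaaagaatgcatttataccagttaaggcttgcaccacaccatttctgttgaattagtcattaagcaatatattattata
Abcc2 peak 3, chr19:43868216-43868316: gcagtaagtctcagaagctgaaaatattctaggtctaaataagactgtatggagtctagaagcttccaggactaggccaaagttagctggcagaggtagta
Abcc2 peak 4, chr19:43870494-43870594: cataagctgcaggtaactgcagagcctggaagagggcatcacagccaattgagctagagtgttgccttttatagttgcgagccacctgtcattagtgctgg
Abcc2 peak 5, chr19:43883991-43884091: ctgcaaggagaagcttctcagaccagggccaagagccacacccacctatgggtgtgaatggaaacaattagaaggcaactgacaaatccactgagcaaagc
Abcc6 peak, chr7:53303815-53303915: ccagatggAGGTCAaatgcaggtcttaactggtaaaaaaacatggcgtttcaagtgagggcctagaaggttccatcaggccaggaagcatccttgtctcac

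Abcb8 was the member with a peak at the start site of its coding transcripts. Abcb8 encodes a transporter of the mitochondrial inner membrane that has been linked to iron handling. The gene (ENSMUSG00000028973.11) runs on the plus strand of chromosome 5 from 23899481 to 23915872. Its peak, from 23899679 to 23900279, was centred 6 bp downstream of 23899973, where a pair of coding transcripts starts. Measured from the first coding start of the gene, the midpoint was 498 bp downstream, in an untranslated part of exon 2 of the 17 exons of Abcb8-001.

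The complete sequence lay at 23900014 to 23900022, in untranslated exon sequence on the strand of the gene, 45 bp downstream of the start site and 39 bp from the peak's midpoint. Every 24-base word over its core occurred once in the genome. The same peak held 1 further AGGTCA, 233 bp from the midpoint in an intron. Other protein-coding genes also started near this peak: Atg9b 2.02 kb away, Accn3 19.3 kb, and Nos3, Cdk5 and Slc4a2 between 29.4 and 29.7 kb. Abcb8 was the nearest of these 6 genes.

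Abcb8 was also compared with the other members by promoter sequence, taken as 250 bases before to 50 bases after each start of a coding transcript in mm9. TCAAGGTCA was found there, on either strand, in 2 of the 50 members (4.00%), Abcb8 and Abcc10. It was found in 134 of the 22359 protein-coding genes with an annotated coding transcript (0.599%). The difference rests on these 2 members and was not tested. The 29 bases at the Abcc10 site occurred 131 times in the genome, and those at the Abcb8 site once. AAGGTCA, which is contained in TCAAGGTCA, was found in 4 members (8.00%), Abcb1a, Abcb8, Abcc10 and Abcg2, and in 6.30% of all genes. Among these 4, Abcb8 was the member with a peak within 1 kb. In Abcg2, an apical drug exporter, the promoter site was 390 kb from the nearest peak, and in Abcb1a it was 93.6 kb away. Of the 134 genes with the complete sequence in a promoter, 12 (8.96%) had a peak within 1 kb, against 465 of all 22367 genes (2.08%).

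The other mitochondrial transporters had no peak within 30 kb. Abcb10, which is known for its part in heme synthesis, was 91.1 kb from its nearest peak and Abcb6 was 687 kb away. Among the 4 genes of the mitochondrial group, the share with a peak was therefore 1 of 4 (25.0%, Wilson interval 4.56 to 69.9%), against 8.75% of all protein-coding genes. In a list of 13 other genes of mitochondrial heme and iron-sulphur metabolism, 2 had a peak, Tmem14c at 0.834 kb and Isca1 at 0.0890 kb (15.4%, Wilson interval 4.33 to 42.2%). The 8.75% of all genes lay inside both intervals.

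**Figure D1:**
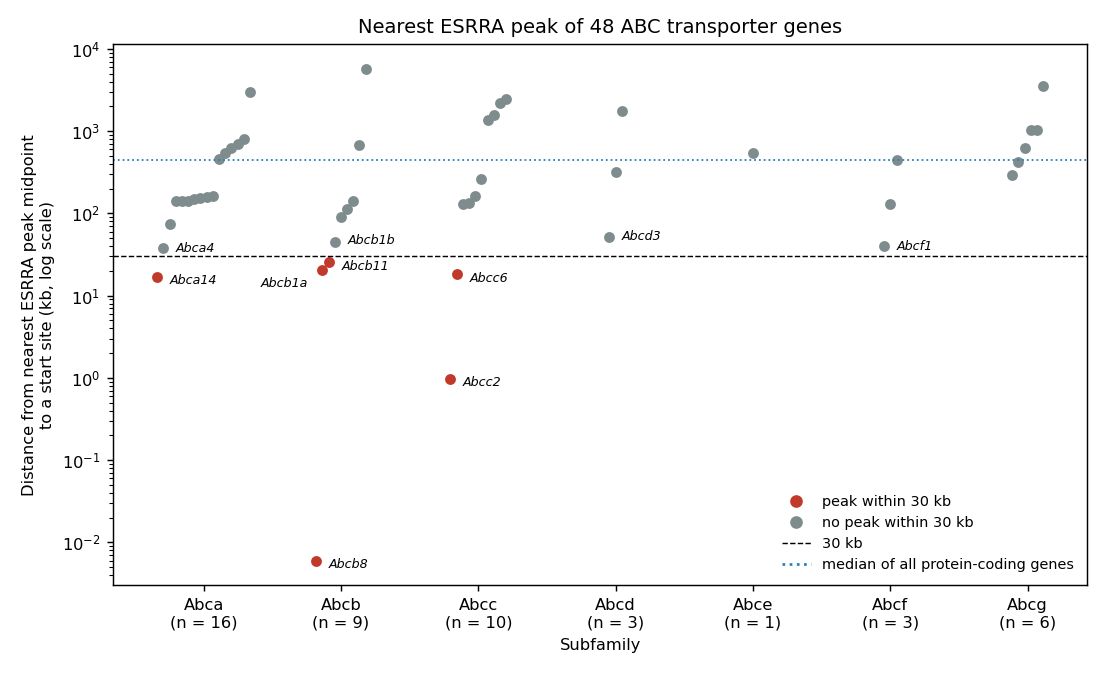
Distance from the start sites of 48 members to the midpoint of the nearest ESRRA peak (vertical axis, kb on a log scale), 1 point per gene by subfamily. The other two members are not reported by name here and were left out. Red points are the 6 genes within 30 kb, with Abcb8 lowest at 0.00600 kb, and the dotted line is the median of all protein-coding genes, 448 kb.

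Abcc2 had 5 peaks, the most of any member. Abcc2, also called MRP2, is an apical exporter of organic anions and their glutathione and glucuronide conjugates in hepatocytes and enterocytes. The gene (ENSMUSG00000025194.4) lies on the plus strand of chromosome 19 from 43856682 to 43912441, and all 5 midpoints were inside it. Having 5 or more peaks within 30 kb was rare, at 40 of 22367 protein-coding genes (0.179%), and 8 genes had 5 or more midpoints inside the gene (0.0358%).

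In Abcc2, 4 of the peaks lay in intron 2, which is 12.1 kb long. They ran from 43861857 to 43862457, 43864193 to 43864793, 43867966 to 43868566 and 43870244 to 43870844, and were 5.47, 7.81, 11.6 and 13.9 kb downstream of the coding start. The fifth peak, from 43883741 to 43884341, lay in intron 11 at 27.4 kb. Midpoints were thus 2.34, 3.77, 2.28 and 13.5 kb apart, and spread over 21.9 kb of the 55.8 kb gene. No peak was at the coding start of Abcc2. The peak in intron 11 was within 1 kb of the start of a retained-intron transcript, at 971 bp, and for this reason alone counted as a promoter peak.

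AAGGTCA was in none of the 5 Abcc2 peaks, which allows a share of up to 43.4% by the Wilson interval. These peaks lie in the same gene and are not independent, which the interval does not take into account. In all 1639 peaks AAGGTCA was found in 44.0%. Among the 170 peaks in runs of 5 or more, with neighbours no more than 30 kb apart, it was found in 22.4%. The core AGGTCA alone was in 2 of the 5, in peak 4 at 247 bp and in peak 5 at 78 bp from the midpoint, and in 61.4% of all peaks. These 9-base sites read CACAGGTCA and TGGAGGTCA, with the core at the right. The best match of each Abcc2 peak to TCAAGGTCA had 2 mismatches. The median count of their 24-base words in the genome, a measure of copy number, was 1.00 for each of the 5, and their GC content was between 40.3 and 49.3%. The median hides repeated stretches: words with more than 10 copies made up 17.8, 0, 25.6, 10.2 and 29.9% of peaks 1 to 5. In the 101 central bases printed above they made up 80.8% of the words of peak 1, 6.41% of those of peak 3 and none in the other three. Cutc had its start within 30 kb of 3 of the peaks and Gm10768 within 30 kb of 1, but Abcc2 was nearest to each.

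The peaks at Abcb1a and Abcb11 lay in repeated sequence. Reads from repeated sequence can be hard to place, but how the reads were placed was not examined here. The copy number of a peak was the median count, over the genome, of its 24-base words. A peak with a copy number above 10 was termed multi-copy. This was so for 2 of the 10 peaks (20.0%, Wilson interval 5.67 to 51.0%) and for 324 of all 1639 (19.8%). Abcb1a (ENSMUSG00000040584.8, chromosome 5, 8660077 to 8748575, plus strand) encodes P-glycoprotein, the apical drug efflux pump. Its peak, from 8753231 to 8753831, was between genes, 4956 bp past the end of Abcb1a, with a median of 105 copies.

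The complete sequence in the Abcb1a peak was 36 bp from the midpoint, measured at its 7-base core. The 24-base words over this core occurred between 51 and 438 times in the genome. Abcb1a counted as having a peak only because a retained-intron transcript starts 20.2 kb from it. From the coding start the distance was 93.5 kb. Abcb1b, the next gene and a paralog of Abcb1a, started 44.6 kb from the same peak, and Abcb4, the phosphatidylcholine transporter of bile, 140 kb from it.

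Abcb11 (ENSMUSG00000027048.8, chromosome 2, 69076339 to 69180671, minus strand) encodes the bile salt export pump of the hepatocyte. Its peak, from 69154949 to 69155549, lay in intron 6 of the 29-exon transcript Abcb11-002, 25.4 kb from the start site. The median copy number was 134. The peak held no AAGGTCA and 1 AGGTCA, at 71 bp from the midpoint in words of between 32 and 13465 copies.

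The peaks of Abca14 and Abcc6 lay upstream of these genes, in introns of other genes. Abcc6 (ENSMUSG00000030834.5, chromosome 7, 53231750 to 53285672, minus strand) is the gene mutated in pseudoxanthoma elasticum. Its peak, from 53303565 to 53304165, was 18.2 kb before the start site and in an intron of Nomo1, whose start was nearer, at 14.8 kb. It held AGGTCA in the form TGGAGGTCA at 40 bp from the midpoint and in the form CTGAGGTCA at 286 bp. Abca14 (ENSMUSG00000062017.8, chromosome 7, 127347475 to 127468866, plus strand) had its peak at 127330302 to 127330902, 16.9 kb before its start site, in an intron of Crym. Anks4b, a gene of the brush border, started 13.2 kb from this peak and Crym 15.0 kb from it, both nearer than Abca14. The peak held 1 AGGTCA, 171 bp from the midpoint. Each of these peaks was single-copy, with a median of 1.00.

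**Figure D2:**
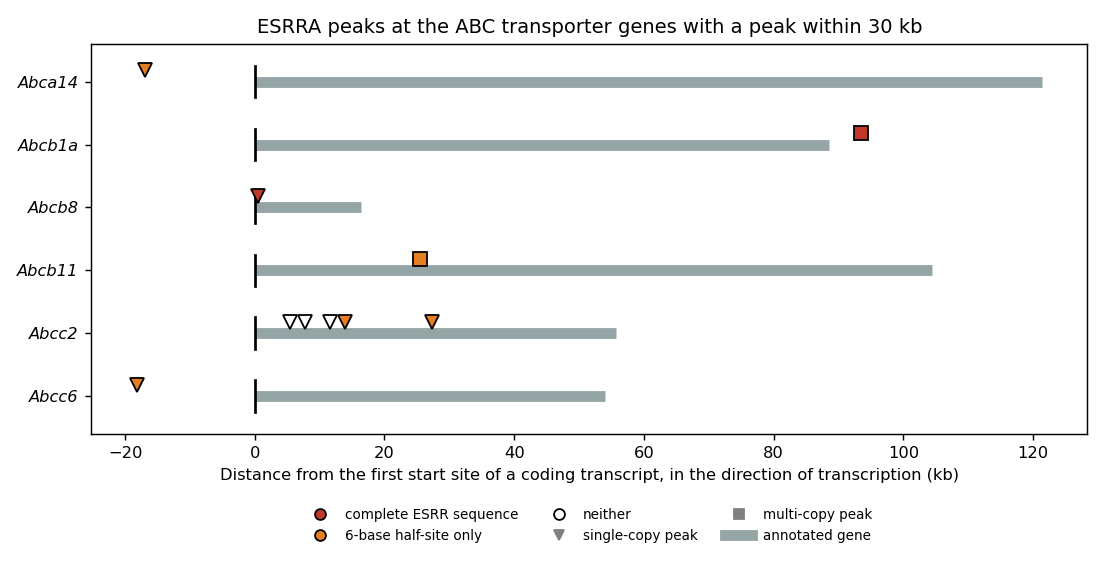
Position of the 10 ESRRA peaks (symbols) along the 6 genes with a peak, in kb from the first start of a coding transcript (black tick) in the direction of transcription, with the annotated gene as a grey bar. Red marks the complete sequence (Abcb1a and Abcb8), orange AGGTCA alone and white neither, and squares are the multi-copy peaks of Abcb1a and Abcb11.

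By position, 7 of the 10 peaks were in introns, 1 was between genes, and 2 were within 1 kb of an annotated start site. Of the 7, 4 lay in the same intron, intron 2 of Abcc2, so that they are not independent. In the whole list 29.2% of peaks were in introns, 35.3% between genes and 29.8% at start sites. AAGGTCA was in 2 of the 10 (20.0%, Wilson interval 5.67 to 51.0%), against 44.0% of all peaks. Both of these held the complete sequence, which was in 14.3% of all peaks. In the 16 windows of the same width 2 kb to either side of the 10 peaks that touched no other peak, AAGGTCA was in 4 (25.0%). In 3074 such windows at all peaks it was in 12.6%. AGGTCA, which overlaps both longer forms, was in 7 of the 10 peaks (70.0%, against 61.4% of all peaks) and in 9 of their 16 windows (56.2%, against 34.2% of all 3074). No test was made on so few peaks.

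The share of members with a peak followed that of all genes over the range of distances. Within 1 kb it was 2 of 50 (4.00%, Wilson interval 1.10 to 13.5%), Abcb8 and Abcc2, against 2.08% of all protein-coding genes. Abcc2 counted at 1 kb only through the start of a retained-intron transcript. From its coding start the nearest peak was 5.47 kb away. Within 10 kb the same 2 genes were found, against 4.64%. Within 50 kb there were 10 genes (20.0%, Wilson interval 11.2 to 33.0%) against 12.3%, and within 100 kb 13 genes (26.0%, Wilson interval 15.9 to 39.6%) against 19.8%. The background lay inside the interval at each distance. A midpoint inside the gene was found for 3 members, Abcb8, Abcb11 and Abcc2, and for 3.40% of all genes.

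**Figure D3:**
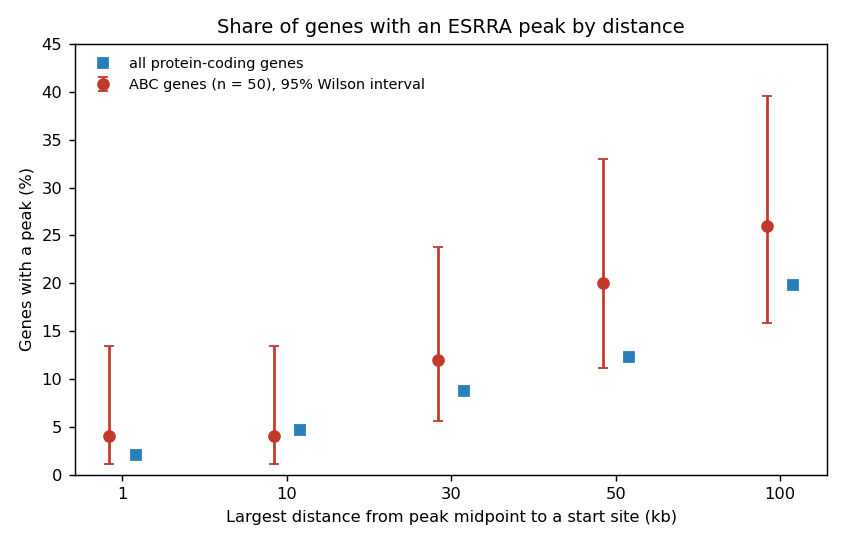
Share of genes (vertical axis, %) with an ESRRA peak midpoint within the distance on the horizontal axis (kb, categories), for the 50 ABC genes (red, bars are 95% Wilson intervals) and all 22367 protein-coding genes (blue). Each blue square, from 2.08% at 1 kb to 19.8% at 100 kb, lies within the red bar beside it.

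The median distance from a member to its nearest peak was 163 kb (quartiles 96.4 and 696 kb), against 448 kb (quartiles 139 and 1197 kb) for all protein-coding genes. Members had a median of 3.00 annotated start sites, against 2.00, and the part of this in the distances was not tested. The windows of 30 kb around the members' start sites covered 3.97 Mb and held 2.52 peaks per Mb, and those of all protein-coding genes held 1.22 per Mb. The 5 Abcc2 peaks were 5 of the 10 in that count.

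The subfamilies differed in their counts. Subfamily b had 3 of 10 genes with a peak (Abcb1a, Abcb8 and Abcb11), subfamily c had 2 of 10 (Abcc2 and Abcc6), and subfamily a had 1 of 16 (Abca14). There was none among the 4 genes of subfamily d, the single gene of e, the 3 of f and the 6 of g. Among all protein-coding genes the share was 8.75%. In subfamily b the peaks of Abcb1a and Abcb11 were multi-copy, which leaves Abcb8 with a single-copy peak. These numbers are too small to rank the subfamilies. The nearest peak of a subfamily g gene was 297 kb away, at Abcg2.

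The sterol exporters had no peak. Abcg5 and Abcg8, which form the heterodimer that returns plant sterols and cholesterol to the gut lumen, were 1024 and 1026 kb from the nearest peak. Abca1, which loads cholesterol onto apolipoprotein A-I at the basolateral membrane, was 153 kb from a peak, and that peak was multi-copy. Abcg1 was 422 kb and Abcg4 632 kb away. With 0 of these 5 genes, the Wilson interval allows a share of up to 43.4%. It holds the 8.75% of all protein-coding genes.

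A list of 10 other genes, named for sterol and bile acid handling, was examined beside these exporters. The list included the lipoprotein genes Mttp, Apob and Apoa1. In it 7 genes had a peak within 30 kb (70.0%, Wilson interval 39.7 to 89.2%, against 8.75% of all protein-coding genes), of which Ostb, Mttp, Apob and Apoa1 had one within 1 kb. Npc1l1, which takes up cholesterol at the brush border, had 2 peaks with the nearest at 6.71 kb, and Soat2 and Scarb1 had 1 each, that of Soat2 at 22.6 kb. Slc10a2, Osta and Fabp6 had none. The list was chosen with earlier results of these data known, so its share cannot serve as a test against all genes. The difference between this list and the 5 exporters was not tested.

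The remaining functional groups were small, and 8.75% of all protein-coding genes had a peak. Of the 4 apical drug exporters, Abcb1a and Abcc2 had a peak (50.0%, Wilson interval 15.0 to 85.0%). The Abcb1a peak was multi-copy and counted only through a retained-intron transcript. Abcb1b was 44.6 kb and Abcg2 297 kb away. Of 5 genes for organic anion transport, placed here with the basolateral exporters, Abcc6 had a peak (20.0%, Wilson interval 3.62 to 62.4%). Abcc1, Abcc3, Abcc4 and Abcc5 did not, with distances from 134 kb for Abcc3 to 2453 kb for Abcc1. The groups were chosen with earlier results of these data known, and their shares were not tested. The potassium channel subunits Abcc8 and Abcc9, the soluble proteins Abce1, Abcf1, Abcf2 and Abcf3, and the peptide transporter Abcb9 had none. Tap1, Tap2 and Cftr, ABC proteins whose symbols fall outside the rule, were 188, 204 and 506 kb from a peak.

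Peroxisomal transporters lay outside the distance. Abcd3, which imports fatty acids and bile acid intermediates as CoA esters, was 52.1 kb from its nearest peak, which held no AAGGTCA. Abcd2 was 1778 kb away. The lysosomal Abcd4, of the same subfamily, was 323 kb away. A list of 12 other peroxisomal genes held genes of beta-oxidation and the peroxisome assembly genes Pex3, Pex5 and Pex19. Of these 12, Acot8 and Pex5 had a peak (16.7%, Wilson interval 4.70 to 44.8%), an interval that holds the 8.75% of all genes.

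Inside 30 kb the largest distance was 25.4 kb, for Abcb11. Just outside, up to 60 kb, were among others Abcd3 and Abcb1b, and also Abca4, at 37.5 kb from a peak with 2 AAGGTCA, and Abcf1, at 39.9 kb. The Abcf1 peak was 1.31 kb from the start of Ppp1r10. For Abca4 the distance from a coding start was 166 kb.

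The complete sequence was common near members without a peak. Within 30 kb of a start site, TCAAGGTCA occurred in 38 of the 44 members without a peak (86.4%), and in 79.6% of all protein-coding genes without one. In the windows of all 50 members there were 107 such sites, at 26.9 per Mb, against 27.3 per Mb around all protein-coding genes. Of the 107 sites, 2 were in a peak (1.87%), those of Abcb8 and Abcb1a, against 0.970% of the sites around all genes. Abcc1 had the most sites without a peak, 9.

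Within 1 kb of a start site of any transcript, 5 members without a peak had the sequence: Abca2, Abcb5, Abcc5, Abcc10 and Abcd4. Of these 5, only Abcc10 had it in a promoter as defined above, from 250 bases before to 50 bases after a coding start. The starts near the Abcb5 and Abcc5 sites were thus not those of coding transcripts. Their sites are shown for comparison with that of Abcb8, with TCAAGGTCA in capitals and 10 bases to each side, on the strand that carries it.
Abca2, chr2:25283334-25283342, 885 bp upstream: gatgaagtatTCAAGGTCAtccttggtta
Abcb5, chr12:120163245-120163253, 196 bp upstream: atctctgagtTCAAGGTCAtccgggatta
Abcc5, chr16:20399786-20399794, 96 bp upstream: aggagaaaggTCAAGGTCAgagcagggac
Abcc10, chr17:46462873-46462881, 162 bp upstream: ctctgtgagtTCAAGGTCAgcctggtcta
Abcd4, chr12:85948406-85948414, 628 bp downstream: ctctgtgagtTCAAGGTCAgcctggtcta

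The site of Abca2 lay between genes and the other 4 in introns of the genes named. The 29 bases at Abcc10 and Abcd4 were identical and occurred 131 times in the genome, and those at Abcb5 occurred 8 times. The 29 bases at Abca2, at Abcc5 and at Abcb8 occurred once each. The nearest peak to the Abcc5 site was 301 kb away and to the Abca2 site 160 kb. In Abcb11, a site 395 bp downstream of the start of a processed transcript, near the far end of the gene, was 78.5 kb from the nearest peak. Among all protein-coding genes, a site within 1 kb of a start was found for 7.49% of those without a peak and 13.5% of those with one.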

How the data were processed

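ESRRA ChIP-seq was made from wild-type duodenal villus cells in 2 libraries, with 1 library of input, grouped by their titles. The authors aligned paired-end reads to mm9 with bowtie2 2.2.6, merged the ChIP libraries with Samtools 0.1.19 and called peaks with MACS2 at a p-value of 1e-05. The deposited peak list used here gives where each peak starts and ends on its chromosome, in base pairs. Peaks per library, peak heights and depth were not analysed here, so that weak and strong peaks could not be told apart.

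Peaks, counted from 1, were joined by midpoint to transcript starts of GENCODE M1 on NCBI build 37, which is mm9. Sequences were matched exactly on both strands. Copy number was the median count of a peak's 24-base words in the genome, and multi-copy meant above 10. Flanking windows lay 2 kb away. Intervals were computed with scipy 1.17.1 in Python 3.11.15, and the functions were tested on simulated data.

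The genes named were every member with a peak within 30 kb, those between 30 and 60 kb, and the functional groups by count. Some members are counted but not reported by name here. Abcc2 as 1 of the genes with 5 or more peaks was singled out after its values were seen. Members and lists were chosen with earlier results of these data known. Alternatives to the distance, start sites, peaks and sequence were computed.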

Additional observations from a re-analysis of the deposited data

How the results depend on the processing

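The share of members with a peak, 12.0%, was 4.00% at 1 kb and at 10 kb and 26.0% at 100 kb. In the 8 other alternatives, 1 of them chosen after seeing the data, it was between 8.00 and 20.0%, inside the interval of 5.62 to 23.8%. Without multi-copy peaks Abcb1a and Abcb11 were lost, which left 4 genes (8.00%) against 8.19% of all genes. With starts of coding transcripts only, Abcb1a was lost (10.0% against 8.32%). Counting only the nearest protein-coding gene removed Abca14 and Abcc6 (8.00%). The number of peaks, 10, was 2 at 1 kb, 6 at 10 kb, 16 at 50 kb and 22 at 100 kb, and between 8 and 10 otherwise.

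The share of the peaks with AAGGTCA, 20.0%, was 70.0% for the shorter AGGTCA. It was 40.0% (2 of 5) without the 5 Abcc2 peaks, chosen after seeing the data, and 12.5% without multi-copy peaks. No paired analysis was possible because the authors called peaks on merged libraries, and for the same reason leaving out a library was not run. The missing depth limits every count, and a gene without a peak is one without a called peak.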

Other observations

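Abcc2 was 1 of 8 protein-coding genes with 5 or more peak midpoints inside the gene. The others were St3gal4 with 14, Slc5a1 with 12, Mgam with 9, Sis with 8, Atp1b1 and Gm20388 with 6 each, and Rbp2 with 5. Slc5a1 encodes the sodium-glucose cotransporter, Mgam and Sis the brush-border disaccharidases, Atp1b1 a subunit of the sodium pump and Rbp2 the retinol-binding protein of enterocytes. Gm20388 is an annotated gene of 4435 kb that spans many others. The remaining genes ran from 19.2 kb for Rbp2 to 140 kb for Mgam, with Abcc2 at 55.8 kb.

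AAGGTCA was in 2 of the 14 peaks inside St3gal4, 1 of 12 in Slc5a1, 3 of 9 in Mgam, 1 of 8 in Sis, 3 of 6 in Atp1b1, 5 of 6 in Gm20388 and 3 of 5 in Rbp2. In Abcc2 it was in 0 of 5. Peaks no more than 30 kb apart were joined into runs. Of the 22 runs of 5 or more peaks, 5 had AAGGTCA in no peak, and the Abcc2 run was among them. Over all 170 peaks in such runs the share was 22.4% (95% Wilson interval 16.7 to 29.2%).

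Sequences of other enterocyte factors were also looked for in the Abcc2 peaks, on both strands and after the ESRR sequences had been examined. TGANTCA, a loosened form of the AP-1 sequence in which N is any base, was in 2 of the 5 peaks (40.0%, Wilson interval 11.8 to 76.9%). That interval holds the 17.4% of all 1639 peaks and the 16.0% of the 3074 flanking windows. The HNF4 sequence CAAAGTCCA, the CDX2 sequence CCATAAA and the zinc-finger factor sequence AGATAAG were in none of the 5, against 2.56, 6.59 and 9.88% of all peaks. For each of these the Wilson interval allows a share of up to 43.4%.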
